A study of Rattus norvegicus with 7 samples.

Results

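Collagens, laminins and integrins are the proteins of the extracellular matrix and the receptors that hold cells to it. Members were all probe sets that name a single gene whose symbol belongs to the collagens, laminin chains, integrin alpha chains or integrin beta chains, together with Fn1, Nid1, Nid2, Sparc and Fbn1. The nuclear lamins (Lmnb) and 5 probe sets of integrin beta binding proteins were left out. This gave 115 probe sets for 79 genes, of 31042 non-control probe sets and 14218 named genes on the array. Each member was picked by its gene symbol and not by its values, but the set was chosen with earlier results of these data known.

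Fibrillar collagens, chiefly types I, III and V, form the fibers of the interstitium and the tunica albuginea, while type IV collagen, laminins and nidogens build the basement membrane under the seminiferous epithelium and around vessels. Integrins are heterodimers of an alpha and a beta chain that bind these ligands and connect them to the cytoskeleton. In the rat testis, integrins containing the Itgb1 product, together with laminin chains, also occur at the apical ectoplasmic specialization, the junction between Sertoli cells and spermatids. Cadmium salts damage testicular vessels and the blood-testis barrier.

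Whole testes came from adult male Sprague-Dawley rats, an outbred stock, and total RNA was hybridized to 7 Rat230_2 arrays. The groups were untreated rats (time 0 h, n = 3) and rats killed 8 h (n = 2) or 20 h (n = 2) after a single intraperitoneal injection of 3 mg/kg cadmium chloride. Age beyond adult, the number of testes per array and a vehicle injection in the controls were not given, and the labels call the arrays biological replicates. Values are linear MAS 5.0 signals that were scaled on each array, and signals of different probe sets cannot be set against each other as levels.

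The trimmed mean signal was 250.1 on each array and the median ran from 52.9 to 72.0. All 6 spermatid markers had a probe set and none was at 0, with summed signals of 70984 to 111231 per array. Hybridization days did not match the groups. Day 1 held untreated replicate 1 and 20 h replicate 1, day 2 held untreated replicate 2 alone, and day 3 held the 8 h pair, 20 h replicate 2 and untreated replicate 3. Actin probe sets at the 3' end exceeded those at the 5' end by 1.19 to 1.42 log2 units on the day 3 arrays, against 0.73 to 0.99 on the remaining arrays, a measure of how complete the labelled RNA was. The hexokinase difference was 0.78 to 0.91 on day 3, against 0.44 to 0.49. The Gapdh difference did not separate the days, with -0.34 to -0.10 on day 3, against -0.21 to -0.12. The spermatid sums also split by day, at 105411 to 111231 on the day 3 arrays, against 70984 to 79251 on the remaining arrays. Median signals were 52.9 to 57.1 on day 3, against 63.2 to 72.0. Both 8 h arrays were hybridized on day 3, so the 8 h values share that day with only 1 untreated array. The part of these day differences in the 8 h values was not tested.

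A probe set was tested where it lay above its array's 40th percentile, a signal of 34.3 to 47.9, on at least 2 arrays. Of the members, 77 probe sets for 58 genes were tested, among 20857 probe sets in all. The 38 others ran from 0.7 to 51.3 in signal, and 21 genes had no probe set above the filter, among them Col2a1 of cartilage, Col17a1 of hemidesmosomes and Itgam, Itgax, Itgad and Itgb3 of leukocytes and platelets. Just inside the limit lay Itgb7 (signals 3.2 to 61.2) and Itga8 (6.7 to 56.1), and just outside it a second Lama4 probe set (1.3 to 50.8) and Col4a6 (5.3 to 41.1). The largest groups tested were the integrin alpha chains with 11 of 15 genes, the laminins with 10 of 10 and the collagens outside the fibrillar and basement membrane types with 15 of 23.

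None of the 77 probe sets passed limma's test at an adjusted p of 0.05 in any comparison. At 8 h, 0 of 77 passed, against 0% of all probe sets, and the lowest adjusted p of a member was 0.836. Unadjusted p-values were under 0.05 for 6 member probe sets at 8 h, against 5.22% of all probe sets; the 6 were lower than untreated, against 4.06% of all, and 0 were higher, against 1.16% of all. At 20 h, 0 of 77 passed, against 0% of all, with a lowest adjusted p of 0.999, and 4 had an unadjusted p under 0.05, against 3.11% of all. Of these, 2 were higher, against 0.767% of all, and 2 lower, against 2.34% of all. For the mean of both cadmium times, 0 of 77 passed, against 0% of all, with a lowest adjusted p of 0.855, and 9 had an unadjusted p under 0.05, against 4.9% of all. Of these, 2 were higher, against 1.23% of all, and 7 lower, against 3.67% of all. For 20 h against 8 h, 0 of 77 passed, against 0% of all, and 2 had an unadjusted p under 0.05, against 1.92% of all, both higher at 20 h, against 1.22% of all, with 0 lower, against 0.7% of all. The F test over the 3 groups passed 0 of 77, against 0% of all, with 3 members at an unadjusted p under 0.05 and 3.02% of all. Lama3 passed the filter only through its 20 h arrays and the dimmer Col14a1 probe set only through 2 untreated arrays, so both were bound to differ. Without them, 3 members had an unadjusted p under 0.05 at 20 h and 1 for 20 h against 8 h. Col12a1, Col9a3 and the brighter Col5a1 and Col14a1 probe sets were above the limit on 20 h replicate 2 alone among the cadmium arrays. They needed their untreated arrays to pass the filter, which favored lower cadmium values for them as well. All fold changes below are limma log2 fold changes of log2(signal + 15) with their standard errors (SE), cadmium over untreated unless stated, and none passed the adjusted test.

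Before the members are described, 1 array needs naming. On untreated replicate 3 the main fibrillar collagens stood above the other untreated arrays. Among the 77 member probe sets, 6 were at least 1 log2 unit higher there than the mean of untreated replicates 1 and 2, against 1.08% of all probe sets. They were both probe sets of Col1a1, both of Col1a2, that of Col3a1 and 1 of the 2 of Sparc. For the better-measured Col1a2 probe set the ratio was 4.19-fold, and for Col1a1 and Col3a1 it was 2.52-fold and 2.15-fold. Other members were lower on that array, with Itgb7 at -1.93, Col4a2 at -0.80 and Col18a1 at -0.77 on the log2 scale. Of the 8 fibroblast and mesenchymal markers, all with a probe set and none at 0, the summed signal was 5245.6 on that array, 2885.8 and 3139.5 on the other untreated arrays, 3391.1 and 3893.5 at 8 h, and 2627.5 and 3758.6 at 20 h. That list includes Col1a1, Col1a2 and Col3a1 themselves. Outside the collagens, Dcn, which codes for the fibril-binding proteoglycan decorin, had 979.5 on that array, against 357.8 and 456.3 on the other untreated arrays, and Lum, under the filter, had 56, against 12.1 and 20.9. The remaining markers of the list differed less there, with Pdgfra 0.35 log2 units higher, Mfap5 0.03 higher and Dpt -0.19, on the lower side. Whether tissue composition had a part in the collagen values was not tested.

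**Figure D1:**
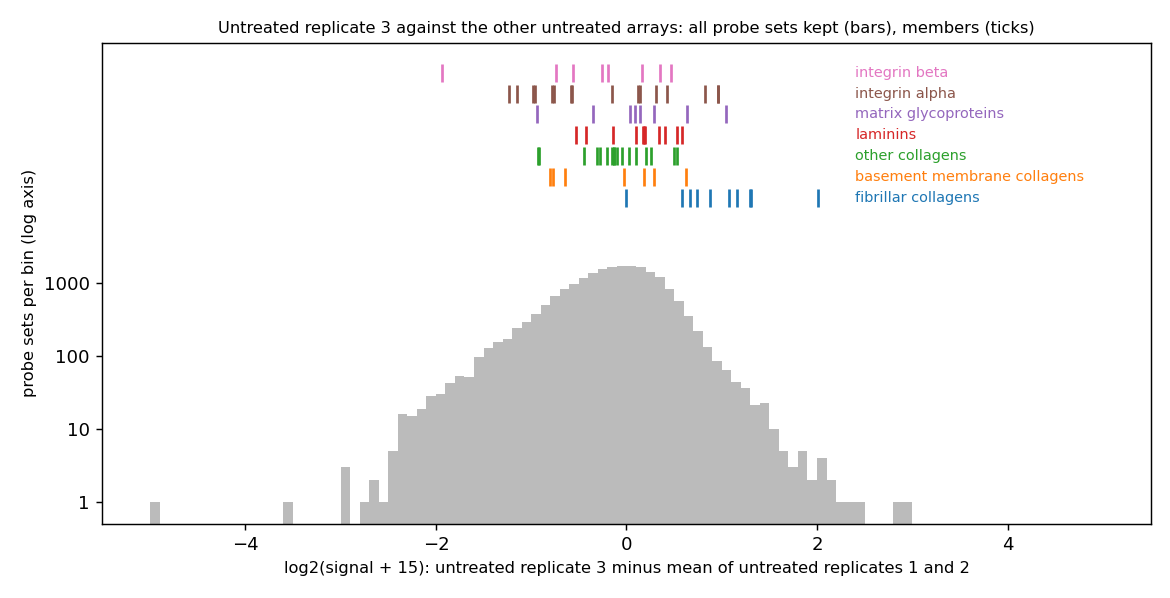
Histogram of log2(signal + 15) on untreated replicate 3 minus the mean of untreated replicates 1 and 2, for the 20857 probe sets tested (gray bars, counts on a log axis). Colored ticks above mark the 77 member probe sets by role; the fibrillar collagens lie at the right, up to 2.01 for Col1a2.

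Type I collagen, the main fiber protein, is built from the products of Col1a1 and Col1a2, and both genes were highest on that array. Signals of Col1a1 were 270.9, 314.1 and 736.6 on the untreated arrays, 261.4 and 279.5 at 8 h, and 268.4 and 205.4 at 20 h. Only 20 h lay wholly below untreated, since 8 h replicate 2 exceeded untreated replicate 1. Its log2 fold change was -0.54 ± 0.36 at 8 h and -0.73 ± 0.36 at 20 h, and without untreated replicate 3 the mean of both times came to -0.20, against -0.63 with it. A second Col1a1 probe set gave 127.6, 115.7 and 290.3 on the untreated arrays, 72.2 and 103.4 at 8 h, and 88.7 and 97.1 at 20 h. All 4 cadmium arrays lay below the untreated ones there, with -0.81 ± 0.35 at 8 h and -0.73 ± 0.35 at 20 h.

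For Col1a2 the untreated arrays had 215.7, 275.5 and 1029, the 8 h arrays 334.4 and 466.5, and the 20 h arrays 164.1 and 340.5. Groups overlapped at both times, and the log2 fold change was -0.01 ± 0.56 at 8 h and -0.71 ± 0.56 at 20 h. The mean over both times was -0.36 ± 0.47 with every array and 0.31 without untreated replicate 3. Its sign in this probe set thus rested on that array. The second Col1a2 probe set had 261.8, 285.4 and 696.2 on the untreated arrays, 225.3 and 292.6 at 8 h, and 164.5 and 298.9 at 20 h, and its groups overlapped too. In it the mean over both times kept its sign, at -0.62 ± 0.33 with every array and -0.18 without untreated replicate 3. The start region of Col1a2 is shown here because its step on untreated replicate 3 was the largest of any member above the other untreated arrays. RefSeq's window of 250 bases before and 50 after the annotated start was chr4:33518307-33518606 on the plus strand of GRCr8:
Col1a2: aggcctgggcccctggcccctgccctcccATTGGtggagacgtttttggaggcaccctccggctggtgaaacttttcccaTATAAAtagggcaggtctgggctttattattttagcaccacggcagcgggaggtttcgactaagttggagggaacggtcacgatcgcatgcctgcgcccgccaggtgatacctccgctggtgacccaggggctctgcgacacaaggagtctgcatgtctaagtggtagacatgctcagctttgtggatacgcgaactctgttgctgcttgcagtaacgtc
Capitals mark the letters ATTGG, the reverse complement of CCAAT, first base 221 before the annotated start, and TATAAA, first base 170 before it. Across 33469 rat promoter windows of the same length, CCAAT or ATTGG occurred in 37.5% and TATAAA or its reverse complement TTTATA in 14.2%, and the motifs did not overlap here. These are letter matches only.

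Type III collagen, which forms fine fibers with type I, was lower than untreated on all 4 cadmium arrays. Col3a1 had 391.6, 315.7 and 760.4 on the untreated arrays, 240.2 and 309.0 at 8 h, and 307.1 and 296.3 at 20 h. The gap between the highest cadmium and the lowest untreated array was small. The log2 fold change was -0.71 ± 0.31 at 8 h and -0.57 ± 0.31 at 20 h, and the mean of both was -0.64 ± 0.26 with every array and -0.28 without untreated replicate 3.

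Col5a1 codes for the main chain of type V collagen, which starts and limits the growth of type I fibrils, and it had the largest fold change of the fibrillar members at both times. Its signals were 66.7, 69.5 and 123.5 on the untreated arrays, 27.2 and 33.4 at 8 h, and 24 and 54.6 at 20 h. All 4 cadmium arrays lay below all untreated arrays, with -1.12 ± 0.37 at 8 h and -0.92 ± 0.37 at 20 h. Signals of 27.2, 33.4 and 24 were under the 40th percentile of their arrays, at 37.3, 35.2 and 41.3. The probe set thus needed its untreated arrays to pass the filter. The mean of both was -1.02 ± 0.31 (adjusted p = 0.855, limma) and -0.78 without untreated replicate 3. Against the untreated array of the same day, the 4 cadmium arrays stood at -1.71, -1.52, -1.07 and -0.99 on the log2 scale. The -1.07, of 20 h replicate 1, was set against untreated replicate 1. The others were set against untreated replicate 3, where Col5a1 was 0.74 log2 units above the other untreated arrays. A second, dimmer Col5a1 probe set ran from 3.8 to 49.9 with overlapping groups. In this bulk tissue, fewer cells of a type and less RNA per cell cannot be told apart.

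The other type V chain, Col5a2, had fold changes of the opposite sign and overlapped at both times, with 150.9, 110.8 and 250 on the untreated arrays, 195.9 and 165.3 at 8 h, and 172.1 and 160.1 at 20 h. Its log2 fold change was 0.14 ± 0.29 at 8 h and 0.03 ± 0.29 at 20 h. Col5a2 neighbors Col3a1 on chromosome 9. Col11a1, a minor fibrillar chain better known from cartilage, had 37.5, 33.8 and 61.0 on the untreated arrays, 34.6 and 44.8 at 8 h, and 31.2 and 23.0 at 20 h. Only its 20 h arrays lay below untreated. The Col5a1 window is given as that of the fibrillar member with the largest fold change, at chr3:31606630-31606929 on the plus strand of GRCr8:
Col5a1: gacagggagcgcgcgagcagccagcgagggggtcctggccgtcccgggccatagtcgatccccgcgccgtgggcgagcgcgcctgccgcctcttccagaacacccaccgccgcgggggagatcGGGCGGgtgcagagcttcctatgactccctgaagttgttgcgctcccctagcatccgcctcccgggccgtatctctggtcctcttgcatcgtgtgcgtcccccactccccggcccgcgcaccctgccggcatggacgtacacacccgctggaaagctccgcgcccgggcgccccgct
Capitals mark GGGCGG, first base 127 before the annotated start, a run found on either strand (as GGGCGG or CCGCCC) in 33.1% of the same 33469 windows. The window held neither CCAAT nor TATAAA on either strand. RefSeq windows were at hand for 60 of the 79 member genes.

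**Figure D2:**
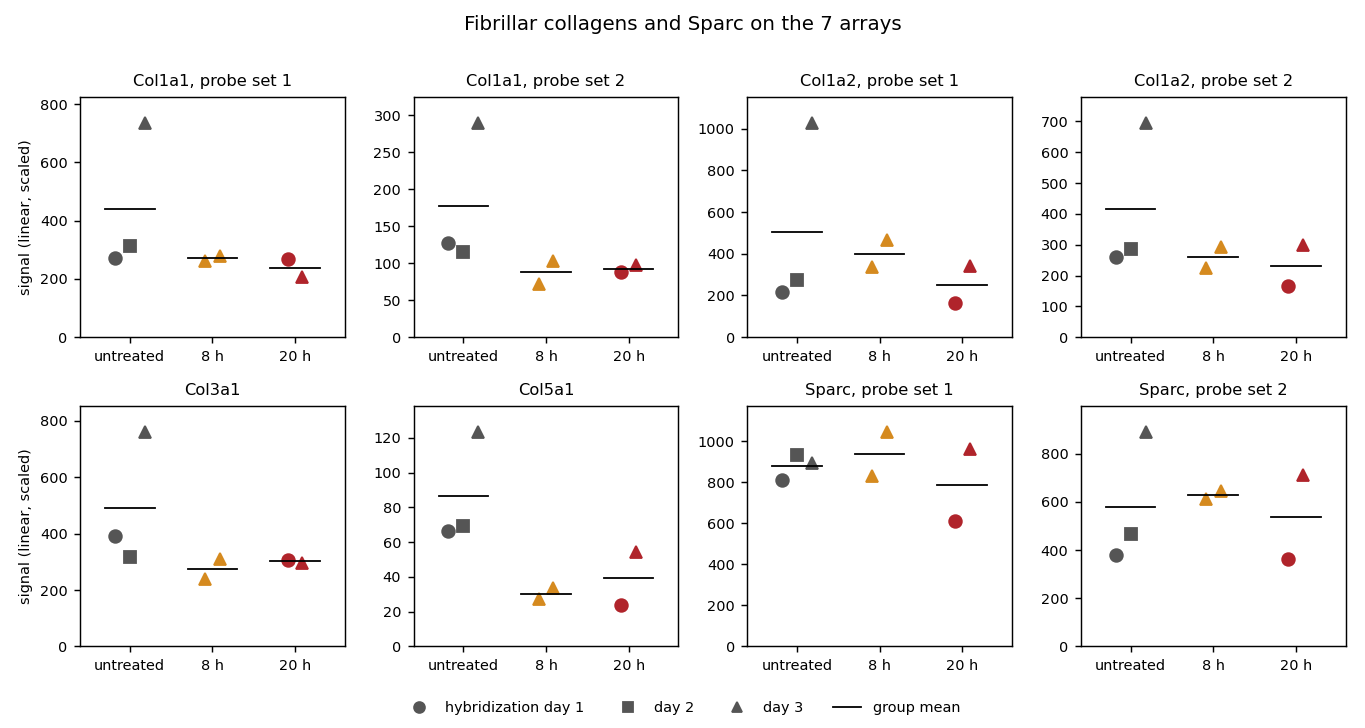
Linear scaled signal (vertical axes from 0) of Col1a1, Col1a2, Col3a1, Col5a1 and Sparc probe sets on the untreated, 8 h and 20 h arrays. Each point is 1 array, its shape the hybridization day, and the line the group mean. The untreated triangle, replicate 3, is the highest point for both Col1a1 and both Col1a2 probe sets, at 736.6 and 1029 in the better-measured ones, while the 4 cadmium arrays of Col5a1 sit between 24 and 54.6.

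Over the 6 fibrillar genes tested, the median log2 fold change was -0.31 at 8 h and -0.64 at 20 h, beside -0.03 at both times over all 11544 genes tested. Without untreated replicate 3 those medians were 0.00 at 8 h and -0.24 at 20 h. With the hybridization day as a block they were -1.0 at 8 h and -0.86 at 20 h. Untreated replicate 2 was alone on day 2, so this block takes it out of the comparisons and leaves untreated replicates 1 and 3. The 8 h arrays shared their day with untreated replicate 3 only, so these larger falls are no plain correction for the day. Against the same-day untreated array the medians were -1.51 and -1.19 for the 8 h arrays and -1.16 for 20 h replicate 2, all 3 set against untreated replicate 3, and -0.26 for 20 h replicate 1, set against untreated replicate 1. The fibrillar collagens thus lay further below untreated replicate 3 than below untreated replicate 1.

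**Figure D3:**
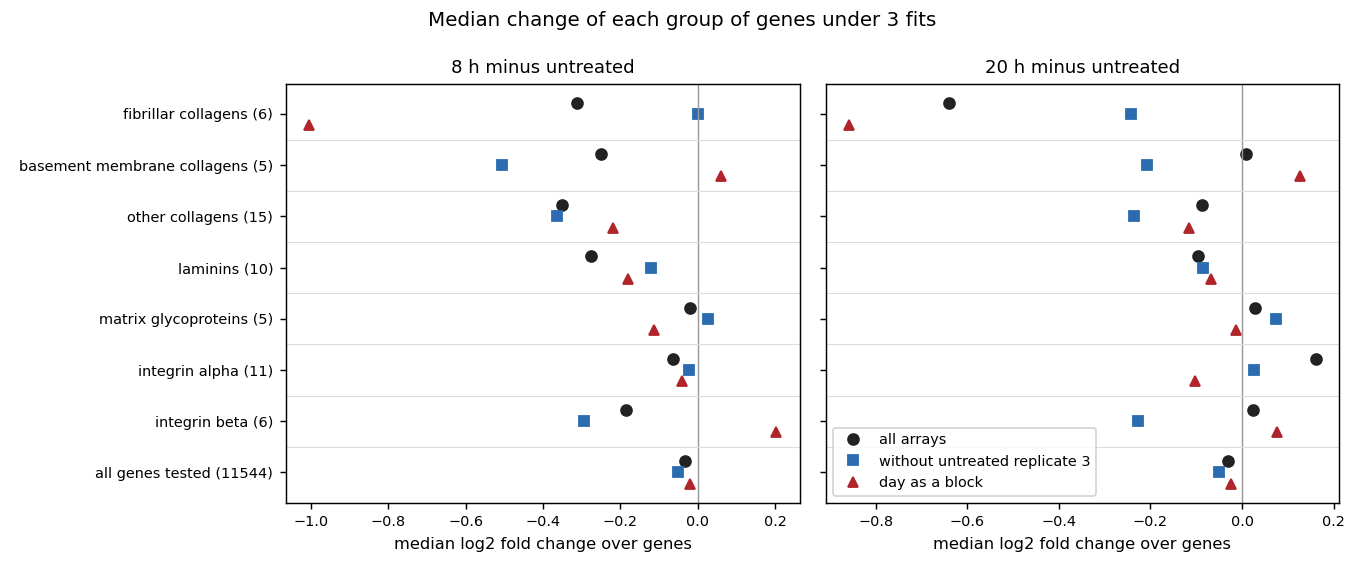
Median log2 fold change over the genes of each role (number of genes in parentheses) at 8 h (left) and 20 h (right) against untreated. Circles are the fit on all arrays, squares the fit without untreated replicate 3 and triangles the fit with the day as a block. That block takes untreated replicate 2, alone on its day, out of the comparisons. The fibrillar collagens spread from 0.00 to -1.0 at 8 h over the 3 fits, and all genes tested stay between -0.05 and -0.02.

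Basement membrane collagens had mixed signs at 20 h. At 8 h the fold changes of Col15a1, Col4a2, Col18a1 and Col4a5 were below 0 and that of Col4a1 above. With the hybridization day as a block, Col4a2 and Col18a1 were above 0 at 8 h, at 0.20 and 0.06. Type IV collagen chains form the network of every basement membrane, and Col4a1 and Col4a2 code for its most widespread chains. Col4a1 had 316.3, 337.0 and 321.2 on the untreated arrays, 370.5 and 322.6 at 8 h, and 429.0 and 307.5 at 20 h. These groups overlapped, with the highest value on 20 h replicate 1, and the log2 fold change was 0.09 ± 0.18 at 8 h and 0.16 ± 0.18 at 20 h. In its second probe set 20 h replicate 1 again stood highest, at 285.8, against 151.9 to 197.8 on the other 6 arrays. Col4a2 had 158.7, 167.4 and 87.1 on the untreated arrays, 109.6 and 107.8 at 8 h, and 166.6 and 115.7 at 20 h. Its lower values were on the 4 day 3 arrays, untreated replicate 3 included, and its log2 fold change was -0.26 ± 0.29 at 8 h and 0.06 ± 0.29 at 20 h.

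Col4a1 and Col4a2 lie head to head on chromosome 16, and their windows are shown because the pair shares 1 start region. The annotated starts are 77 bases apart on opposite strands and the windows have 176 bases in common, at chr16:84885347-84885646 on the plus strand (Col4a1) and chr16:84885471-84885770 on the minus strand (Col4a2) of GRCr8:
Col4a1: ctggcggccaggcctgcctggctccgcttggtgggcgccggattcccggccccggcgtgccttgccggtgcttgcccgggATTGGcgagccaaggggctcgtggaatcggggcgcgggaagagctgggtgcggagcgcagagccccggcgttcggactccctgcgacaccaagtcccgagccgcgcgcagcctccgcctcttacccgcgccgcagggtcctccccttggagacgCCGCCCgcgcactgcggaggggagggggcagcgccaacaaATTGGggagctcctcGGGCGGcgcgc
Col4a2: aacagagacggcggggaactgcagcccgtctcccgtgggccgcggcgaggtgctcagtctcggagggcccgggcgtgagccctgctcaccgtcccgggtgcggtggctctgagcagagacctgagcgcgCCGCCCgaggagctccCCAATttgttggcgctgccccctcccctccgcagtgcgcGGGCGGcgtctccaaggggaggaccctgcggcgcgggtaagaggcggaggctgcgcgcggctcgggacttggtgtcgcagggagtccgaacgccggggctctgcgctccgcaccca
Capitals mark CCAAT and GGGCGG or their reverse complements ATTGG and CCGCCC, with no overlap between them. In the Col4a1 window a first ATTGG begins 170 bases and CCGCCC 16 bases before the annotated start. In the Col4a2 window CCGCCC begins 121, CCAAT 105 and GGGCGG 66 bases before its start. Neither window held TATAAA or TTTATA.

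Col4a5, a chain of the Alport locus, had 400.3, 312.3 and 434.2 on the untreated arrays, 303.6 and 341.9 at 8 h, and 372.4 and 333.2 at 20 h, with overlap at both times. Col15a1, a collagen of the basement membrane zone around vessels and muscle, had 84.7, 92.0 and 144.1 on the untreated arrays, 22.2 and 95.3 at 8 h, and 47.9 and 47.3 at 20 h. The 20 h arrays were both below untreated, and the 8 h arrays differed widely from each other. The log2 fold change was -0.90 ± 0.43 at 8 h and -0.93 ± 0.43 at 20 h. Col18a1, the precursor of endostatin, had 215.9, 210.1 and 118.7 on the untreated arrays, 153.3 and 138.0 at 8 h, and 175.1 and 178.7 at 20 h, and untreated replicate 3 was the lowest of all. The summed signal of the endothelial markers (9 of 10 with a probe set, none at 0) was 837.6, 866.0 and 711.5 on the untreated arrays, 417.3 and 627.3 at 8 h, and 373.6 and 739.8 at 20 h. Its part in the Col15a1 values was not tested.

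Among the collagens that associate with fibrils, Col14a1, Col12a1 and Col9a3 lay below untreated on all 4 cadmium arrays at low signals, while Col16a1 and Col20a1 overlapped with untreated. Col14a1, which binds the fibril surface, had 56.8, 74.9 and 49.8 on the untreated arrays, 13.3 and 25.2 at 8 h, and 34.3 and 38.2 at 20 h. No cadmium array reached the untreated range. The log2 fold change was -1.15 ± 0.33 at 8 h and -0.55 ± 0.33 at 20 h, and the mean of both was -0.85 ± 0.28 with every array and -0.95 without untreated replicate 3. The second Col14a1 probe set passed the filter only through 2 untreated arrays; it had 65, 56.5 and 24.8 on the untreated arrays, 27.6 and 26 at 8 h, and 28.8 and 1.3 at 20 h, with overlap at both times. Col12a1, a relative of Col14a1 in tendon and other dense tissue, had 52.3, 53.8 and 58 on the untreated arrays, 34.2 and 27.3 at 8 h, and 38.7 and 41.1 at 20 h. Col9a3, a fibril-associated chain of cartilage, had 53.2, 44.0 and 42.1 on the untreated arrays, 21.5 and 19.5 at 8 h, and 33.4 and 36.1 at 20 h. Neither gene overlapped between cadmium and untreated arrays, and in both the 20 h arrays lay between the 8 h and the untreated ones. The cadmium values of these 3 genes were near or under the 40th percentile of their arrays.

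Col22a1, a collagen of tissue junctions, was well above that level. It had 877.8, 751.1 and 759.5 on the untreated arrays, 689.0 and 557.5 at 8 h, and 627.5 and 638.9 at 20 h. All 4 cadmium arrays were below the untreated range, with -0.35 ± 0.15 at 8 h and -0.32 ± 0.15 at 20 h, and -0.33 ± 0.13 for the mean of both. Without untreated replicate 3 that mean was -0.37.

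Collagen VI, which forms beaded microfilaments beside basement membranes, had no separation in Col6a1, with 629.4, 679.1 and 632.0 on the untreated arrays, 712.9 and 644.2 at 8 h, and 662.1 and 608.9 at 20 h. Its log2 fold change was 0.07 ± 0.14 at 8 h and -0.03 ± 0.14 at 20 h. Its neighbor on chromosome 20, Col6a2, ran from 60.2 to 130.9 with overlap at both times. Col6a3 had 140.9, 105.6 and 182.6 on the untreated arrays, 85.5 and 131.2 at 8 h, and 170.3 and 111.1 at 20 h, and overlapped as well. The dim chains Col6a5 (4.1 to 53.8) and Col6a6 (5.4 to 54.9) gave large but uncertain fold changes, such as -0.84 ± 0.46 for Col6a6 at 8 h, where the 8 h arrays themselves had 39.6 and 5.4. Col16a1, a fibril-associated collagen, stayed between 3056.1 and 3715.1 on every array, with 0.07 ± 0.13 at 8 h and 0.10 ± 0.13 at 20 h. Col20a1 had 220.4, 162.5 and 93.5 on the untreated arrays, 160.9 and 194.7 at 8 h, and 225.4 and 126.5 at 20 h, with untreated replicate 3 lowest.

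Over the 15 other collagens tested, the median log2 fold change was -0.35 at 8 h and -0.09 at 20 h. Without untreated replicate 3 it was -0.37 and -0.24, and with the day as a block -0.22 and -0.12. These 3 fits share most of their arrays and are not separate checks. Col12a1, Col14a1 and Col9a3 of this group also needed their untreated arrays to pass the filter. Against the same-day untreated array the medians were -0.14 and -0.43 for the 8 h arrays. They were 0.02 for 20 h replicate 1 and -0.16 for 20 h replicate 2. In the same 3 fits the laminin medians ran from -0.28 to -0.12 at 8 h and from -0.10 to -0.07 at 20 h. All genes tested had medians of -0.05 to -0.02 there.

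Laminins are trimers of an alpha, a beta and a gamma chain, and among them Lamb2 was lower than untreated on all 4 cadmium arrays. Lamb2, the beta chain of many adult basement membranes, had 138.1, 113.2 and 145.9 on the untreated arrays, 106.2 and 99.3 at 8 h, and 97.0 and 105.6 at 20 h. The log2 fold change was -0.32 ± 0.21 at 8 h and -0.34 ± 0.21 at 20 h, and the 4 same-day differences were alike, from -0.49 to -0.41. Lamc1, the most widespread gamma chain, had 197.3, 203.6 and 215.6 on the untreated arrays, 188.2 and 204.5 at 8 h, and 151.5 and 165.1 at 20 h. Only the 20 h arrays lay below untreated, at -0.35 ± 0.17, and a second, dimmer Lamc1 probe set gave 0.08 ± 0.34 at 20 h. Lamc3, a gamma chain reported at the spermatid junction in rat, had 98.6, 97.4 and 128.2 on the untreated arrays, 115.0 and 65.1 at 8 h, and 77.8 and 76.4 at 20 h. Again the 20 h arrays lay below untreated and the 8 h arrays did not, with -0.41 ± 0.27 at 20 h.

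Lama3 was the laminin with the widest gap between the times. This alpha chain, also reported at the spermatid junction in rat, had 38.2, 18.4 and 32.8 on the untreated arrays, 21.7 and 7.1 at 8 h, and 55.9 and 40.3 at 20 h. Both 20 h arrays were above all others, and the 8 h arrays overlapped the untreated ones. It passed the filter only through its 20 h arrays, so a difference was built in and no test is read from it; the 20 h minus 8 h difference was 1.14 log2 units. Lamb3, the partner beta chain, had 279.9, 493.6 and 336.1 on the untreated arrays, 354.4 and 225.6 at 8 h, and 386.7 and 280.5 at 20 h, and its groups overlapped.

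The embryonic and tubule-associated alpha chain Lama1 had 236.8, 222.2 and 167.4 on the untreated arrays, 153.6 and 164.4 at 8 h, and 240.5 and 159.4 at 20 h. All day 3 arrays were the low ones, and against the same-day untreated array the 4 differences were between -0.11 and 0.02. Lama2, the muscle type of alpha chain, had 169.9, 137.0 and 226.9 on the untreated arrays, 199.7 and 198.6 at 8 h, and 145.3 and 231.5 at 20 h. Lama4, the vessel type, ran from 117.2 to 186.6, and Lama5, the broad adult type, from 45.6 to 99.1, both with overlap at both times. Lamb1 had 76.4, 93.6 and 117.2 on the untreated arrays, 102.8 and 88.9 at 8 h, and 138.6 and 109.9 at 20 h, with its highest value on 20 h replicate 1.

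**Figure D4:**
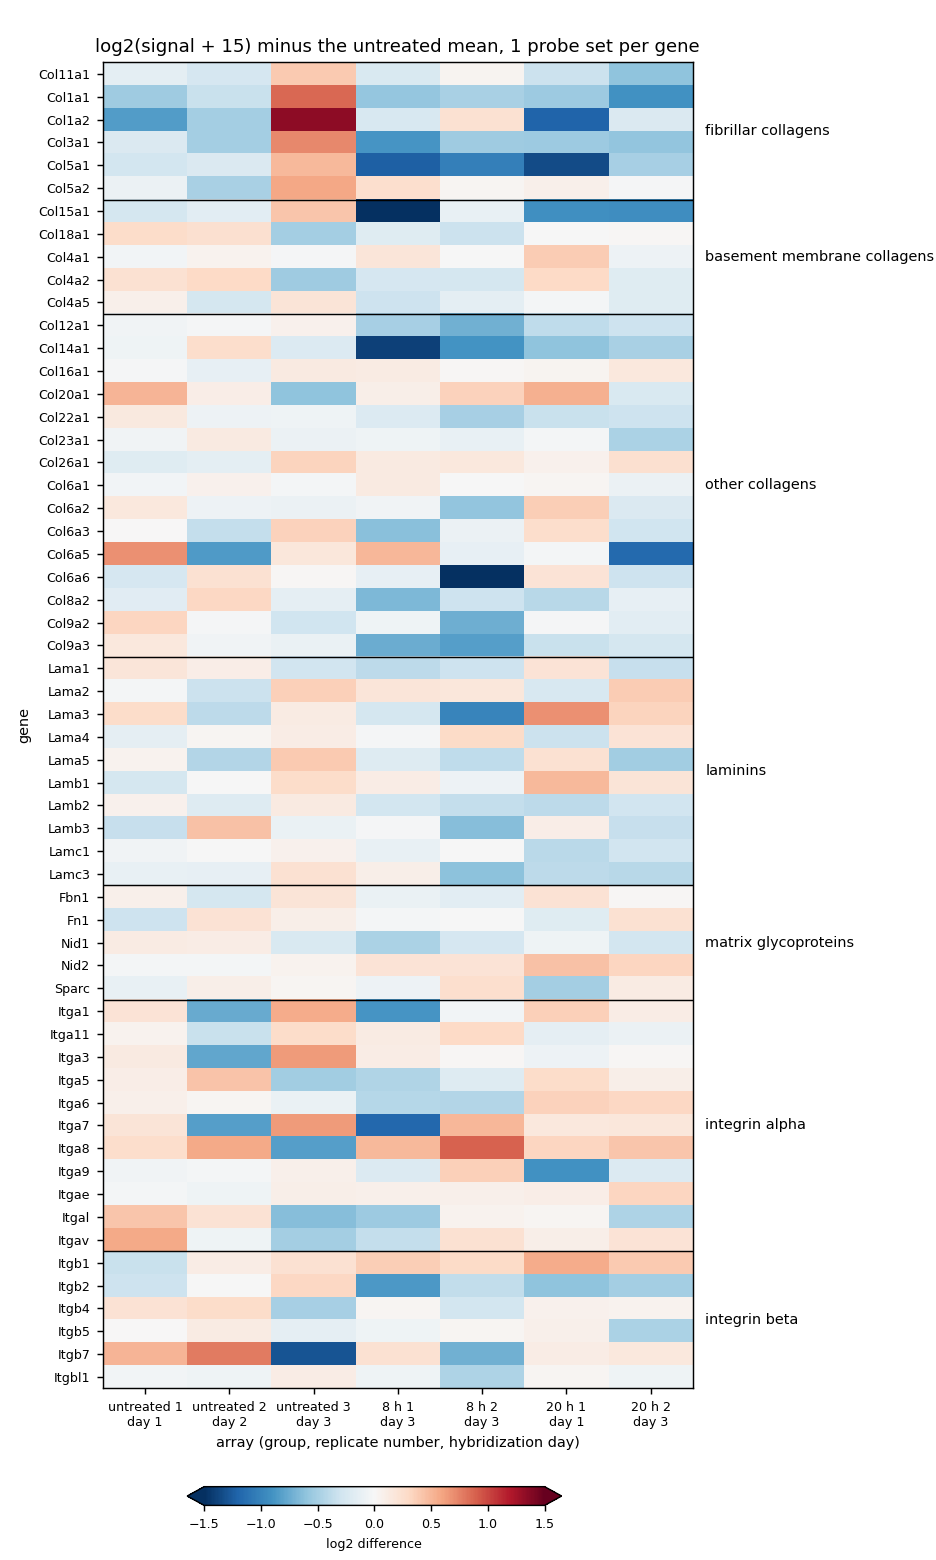
Heat map of log2(signal + 15) minus the untreated mean for the 58 member genes tested, 1 probe set per gene, on the 7 arrays in columns (group, replicate number, day), grouped by role. Red is above and blue below the untreated mean. Untreated replicate 3 is red for all 6 fibrillar collagens, and Nid2 and Itgb1 are red on all 4 cadmium arrays.

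The 2 nidogens, which link laminin to type IV collagen, went apart. Nid2 had 623.9, 626.8 and 664.8 on the untreated arrays, 738.0 and 740.4 at 8 h, and 872.3 and 803.6 at 20 h. All 4 cadmium arrays were above untreated, the 20 h arrays above the 8 h ones, and the 3 groups did not overlap. The log2 fold change was 0.21 ± 0.13 at 8 h and 0.38 ± 0.13 at 20 h, and the mean of both was 0.30 ± 0.11 (adjusted p = 0.855, limma) with every array and 0.32 without untreated replicate 3. Nid1 had 596.1, 590.1 and 462.8 on the untreated arrays, 389.4 and 456.3 at 8 h, and 519.6 and 450.2 at 20 h. Its 8 h arrays lay below untreated, at -0.36 ± 0.17, but against the same-day untreated array the 4 differences ran from -0.24 to -0.02. A second Nid1 probe set had a log2 fold change of -0.73 at 8 h. At 20 h the Nid1 probe sets gave -0.36 and -0.17.

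Fn1, fibronectin, had 43.2, 69.2 and 62.0 on the untreated arrays, 55.6 and 57.0 at 8 h, and 48.8 and 70.0 at 20 h, with log2 fold changes of -0.02 ± 0.29 and 0.03 ± 0.29. Fbn1, the microfibril protein fibrillin, had 139.2, 106.5 and 151.9 on the untreated arrays, 121.1 and 116.1 at 8 h, and 155.6 and 132.9 at 20 h. Neither gene separated cadmium from untreated arrays. Sparc, a collagen-binding matricellular protein, had 810.5, 932.5 and 891.9 on the untreated arrays, 831.3 and 1045.4 at 8 h, and 613.2 and 959.7 at 20 h. Its second probe set had 381.3, 468.7 and 890.4 on the untreated arrays, 611.4 and 643.9 at 8 h, and 363.2 and 710.6 at 20 h. The probe sets disagreed on untreated replicate 3, which was 1.05 log2 units above the other untreated arrays in the second and 0.04 in the first. Among the 17 member genes with more than 1 probe set tested, the probe sets differed in sign for 4 at 8 h and 5 at 20 h.

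Among the integrin beta chains, Itgb1 was above and Itgb2 below untreated on all 4 cadmium arrays. Itgb1, the shared beta chain of most receptors for collagen, laminin and fibronectin, had 275.6, 380.8 and 416.6 on the untreated arrays, 459.4 and 435.0 at 8 h, and 526.7 and 468.4 at 20 h. The lowest cadmium array stood just above the highest untreated one. The log2 fold change was 0.33 ± 0.19 at 8 h and 0.48 ± 0.19 at 20 h, with a mean of 0.40 ± 0.16 (adjusted p = 0.855, limma), and 0.52 without untreated replicate 3. Against the same-day untreated array the day 3 cadmium arrays differed by 0.06 to 0.16 and 20 h replicate 1 by 0.90. A second Itgb1 probe set had 162.1, 158.7 and 103.9 on the untreated arrays, 140.5 and 161.4 at 8 h, and 233.0 and 110.3 at 20 h, and overlapped.

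Itgb2, the beta chain of leukocyte integrins, had 74.5, 95.1 and 122.2 on the untreated arrays, 45.9 and 70.8 at 8 h, and 57.6 and 62.5 at 20 h. Every cadmium array was below every untreated one, with -0.61 ± 0.28 at 8 h and -0.56 ± 0.28 at 20 h. Its alpha partners were Itgal, which ran from 38.4 to 95.7 with overlap at both times, and Itgam, Itgax and Itgad, which were under the filter, with signals of 1.3 to 50.8. The summed macrophage markers, with all 7 measured and none at 0, gave 1448.1 and 1343.2 at 8 h and 1519.8 and 1319.8 at 20 h, against 1229.5 to 1362.3 on the untreated arrays. Its genes did not move alike: Csf1r had 70.8 and 102.1 at 8 h and 80 and 110 at 20 h, against 122.9 to 128.9 on the untreated arrays, and Cd163 had 106.8 and 84.3 at 8 h and 137.3 and 77.2 at 20 h, against 37.4 to 52.3. Csf1r thus lay below untreated on all 4 cadmium arrays, as Itgb2 did, and Cd163 above. The part of these cells in the Itgb2 values was not tested. The neutrophil and myeloid list, 7 of 8 with a probe set and including Itgb2 and Itgam, summed to 163.9 and 221.3 at 8 h and 243.0 and 184.1 at 20 h, against 228.7 to 246.7 on the untreated arrays. Only 2 of its genes passed the filter, Itgb2 itself and Fcgr3a, so this sum says little about myeloid cells.

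Itgb5, a beta chain that pairs with Itgav, overlapped in its brighter probe set, which ran from 209.0 to 322.9. Its dimmer probe set had 108.4, 121.4 and 93.4 on the untreated arrays, 82.1 and 79.9 at 8 h, and 82.1 and 66.1 at 20 h, all 4 cadmium arrays below untreated, with -0.35 ± 0.23 and -0.46 ± 0.23. Itgb4, the hemidesmosome chain that pairs with Itga6, had 136.1, 143.1 and 77.3 on the untreated arrays, 117.5 and 92.4 at 8 h, and 121.5 and 119.9 at 20 h, with untreated replicate 3 the lowest.

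Among the alpha chains, Itga6 had separate 8 h, untreated and 20 h ranges in its brightest probe set. The gene codes for a laminin receptor chain found in rat testis at the spermatid junction and the basal surface. It had 125.5, 121.1 and 109.1 on the untreated arrays, 84.1 and 83.0 at 8 h, and 154.6 and 150.8 at 20 h. Both 8 h arrays were below and both 20 h arrays above the untreated range, with -0.44 ± 0.20 at 8 h and 0.33 ± 0.20 at 20 h. The 20 h minus 8 h difference was 0.77 ± 0.22 (adjusted p = 1.00, limma). The 3 other Itga6 probe sets, at signals of 17.9 to 101.3, overlapped with untreated at both times, and their 20 h minus 8 h differences were -0.15 ± 0.40, 0.64 ± 0.53 and 0.79 ± 0.45.

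Itgae, which pairs with Itgb7 and binds E-cadherin, had 808.3, 790.2 and 881.4 on the untreated arrays, 872.9 and 872.6 at 8 h, and 884.4 and 1038.7 at 20 h. Its 20 h arrays were above untreated by little, at 0.21 ± 0.14. Itga5, the fibronectin receptor chain, had 60.8, 79.6 and 34.1 on the untreated arrays, 36.5 and 46.9 at 8 h, and 70.5 and 60.3 at 20 h. Itga1, a collagen receptor chain, had 47.8, 17.3 and 64.9 on the untreated arrays, 14.5 and 38.2 at 8 h, and 55.1 and 44.1 at 20 h. Both genes were higher at 20 h than at 8 h with no overlap between the times, but the untreated arrays overlapped with both. Itga8 had 31.1, 41.8 and 6.7 on the untreated arrays, 38.8 and 56.1 at 8 h, and 33.1 and 36.5 at 20 h, and its 2 probe sets gave opposite signs at 8 h, 0.69 ± 0.45 and -0.76 ± 0.40. Itga9 had 45.0, 45.7 and 50.5 on the untreated arrays, 38.7 and 64.4 at 8 h, and 18.1 and 38.9 at 20 h, so that only the 20 h arrays lay below untreated, at -0.55 ± 0.35. The laminin receptor chains Itga3 (32.0 to 110.7) and Itga7 (3.9 to 51.4), the collagen receptor chain Itga11 (37.9 to 67.3) and Itgav (38.6 to 98.3) did not separate cadmium from untreated arrays.

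**Figure D5:**
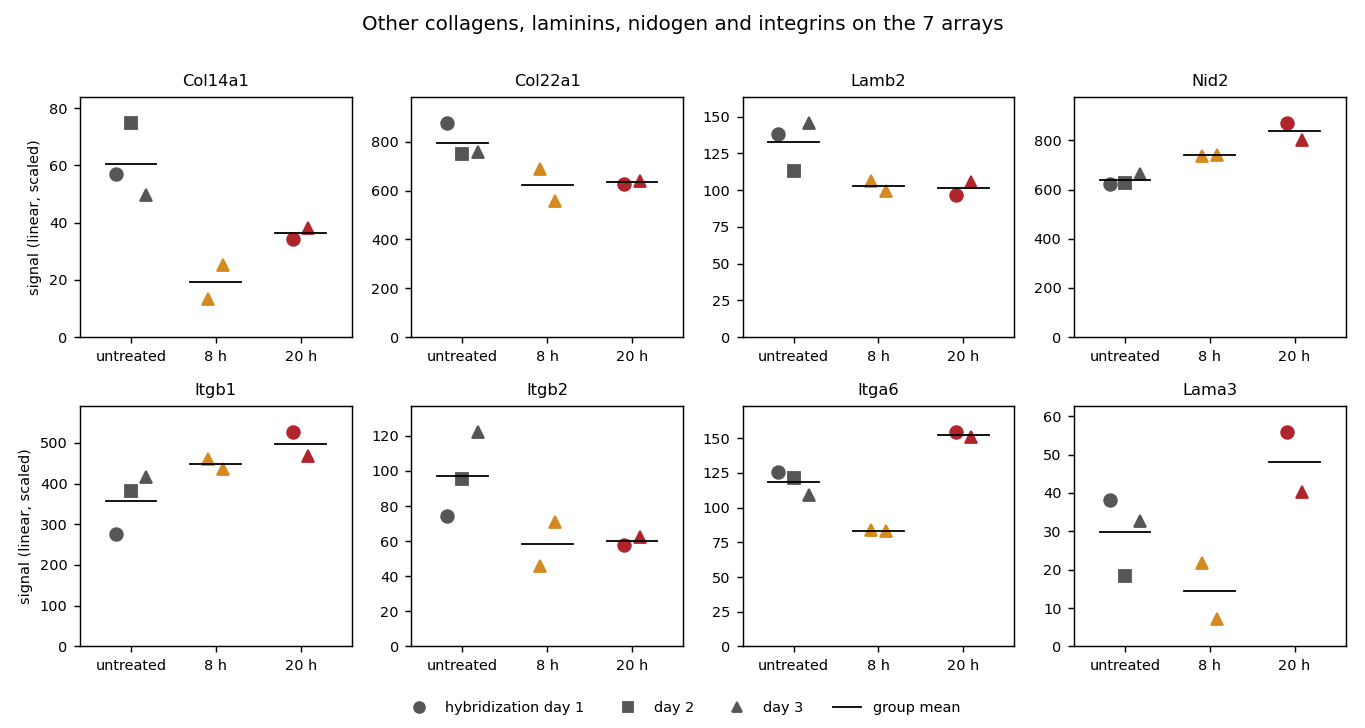
Linear scaled signal (vertical axes from 0) of Col14a1, Col22a1, Lamb2, Nid2, Itgb1, Itgb2, Itga6 and Lama3 on the untreated, 8 h and 20 h arrays. Points are single arrays, shapes the hybridization day and lines group means. Nid2 and Itgb1 lie above untreated on all 4 cadmium arrays, Col14a1, Col22a1, Lamb2 and Itgb2 below, and Itga6 has 84.1 and 83.0 at 8 h but 154.6 and 150.8 at 20 h.

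Counted over the 77 probe sets, all 4 cadmium arrays lay above all 3 untreated arrays for 2, Itgb1 and Nid2, against 1.82% of all probe sets. They lay below for 10, which is 13.0% of the members, against 4.9% of all probe sets. The 10 were Col3a1, Col5a1, Col12a1, Col14a1, Col22a1, Col9a3, Lamb2 and Itgb2 and the dimmer probe sets of Col1a1 and Itgb5. Of these, Col5a1, Col12a1, Col14a1 and Col9a3 needed their untreated arrays to pass the filter, which favored lower cadmium values for them. The share over all probe sets went through the same filter. When untreated replicate 3 was left out, 19 members were below, 24.7% of them, against 19.1% of all probe sets, and 6 were above, against 8.27% of all. Leaving out any other single array gave 14.3% to 18.2% of the members below, against 6.51% to 11.1% of all probe sets.

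At 8 h, 17 member probe sets lay wholly below untreated, against 15.4% of all probe sets, and 2 wholly above, against 7.59% of all. At 20 h, 16 were below, against 10.7% of all, and 6 above, against 4.65% of all. The 6 were Nid2, Itgb1, Itga6, Itgae, Lama3, which passed the filter through these arrays alone, and the dimmer probe set of Col5a2. Between the times, 19 were higher at 20 h than at 8 h, against 15.2% of all, and 4 lower, against 13.2% of all. The higher ones included Nid2, Itgb1, Itga6, Lama3, Lamb1, Col12a1, Col14a1 and Col9a3, and the lower ones were Col11a1, Itga11, Lamc1 and the brighter probe set of Itga8. The comparisons with untreated share the same 3 control arrays. Over the 58 genes, the median log2 fold change was -0.24 at 8 h, with 18 genes above 0 and 40 below, and -0.06 at 20 h, with 24 above and 34 below. Over all 11544 genes tested, 5179 were above and 6365 below 0 at 8 h, and 5069 above and 6475 below at 20 h. The members' 8 h median was -0.0803 after quantile normalization and -0.12 without either 8 h array, and the 20 h median had the opposite sign after quantile normalization, at 0.0297, and without 20 h replicate 2, at 0.0324. For 20 h against 8 h the members' median was 0.14, with 38 above and 20 below, beside 5618 above and 5926 below over all genes tested.

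Enzymes that modify and crosslink collagen, other matrix proteins, and matrix receptors with integrin adaptors were examined as lists of related genes. Probe sets were found for 18 of 23, 25 of 29 and 28 of 29 listed symbols, and 15, 20 and 26 genes were tested. In limma 0 of them passed at an adjusted p of 0.05 in either direction at 8 h or at 20 h. At 8 h an unadjusted p under 0.05 was found for 1 gene above and 1 below untreated in the collagen enzymes, 0 and 1 in the other matrix proteins, and 0 and 1 in the receptors and adaptors, against 1.16% of all probe sets above and 4.06% below. At 20 h the counts were 0 above and 2 below, 2 above and 2 below, and 0 and 0, against 0.767% of all above and 2.34% below. The list medians were -0.03, -0.08 and -0.06 at 8 h and 0.12, -0.13 and 0.04 at 20 h.

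In the enzyme list Fkbp10, a chaperone of procollagen folding, had 112.1, 106.1 and 109.5 on the untreated arrays, 79.4 and 59.7 at 8 h, and 78.0 and 54.2 at 20 h. Its log2 fold changes were -0.56 ± 0.25 and -0.63 ± 0.25. It was the only 1 of the list's 15 genes tested below untreated on all 4 cadmium arrays, against 4.9% of all probe sets. None was above, against 1.82% of all. P4ha2, a prolyl hydroxylase subunit, had 913.9 on 20 h replicate 1, against 393.2 to 523.3 on the other arrays. On that same array Lox, which crosslinks collagen, had 127.2, against 34.1 to 63.7 elsewhere, and P4ha3 had 8.2, against 103.2 to 290.9. The 20 h arrays thus differed from each other for these enzymes, as they did for Col4a1, and the summed Leydig markers (all 6 measured, none at 0) gave 2468.8 on 20 h replicate 1, against 7260.5 on its 20 h counterpart and 5871.1 to 8145.2 on the untreated arrays. Its part in these values was not tested.

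Of the other matrix proteins, Eln, elastin, had 69.0, 72.4 and 75.5 on the untreated arrays, 43.6 and 48.3 at 8 h, and 30.6 and 34.8 at 20 h. The groups did not overlap, and the log2 fold change was -0.52 ± 0.27 at 8 h and -0.87 ± 0.27 at 20 h. Mgp, an inhibitor of matrix calcification, had 1402.1, 1678.0 and 2075.5 on the untreated arrays, 2446.6 and 2098.1 at 8 h, and 2692.4 and 2085.6 at 20 h. Its log2 fold changes were 0.41 ± 0.19 and 0.48 ± 0.19. Of the list's 20 genes tested, only Mgp was above untreated on all 4 cadmium arrays, against 1.82% of all probe sets. Only Eln was below, against 4.9% of all. Among the receptors and adaptors, Pxn, the focal adhesion adaptor paxillin, had 1260.7, 1347.2 and 1256 on the untreated arrays, 1503.6 and 1431.4 at 8 h, and 1450 and 1437.1 at 20 h. Its log2 fold changes were 0.19 ± 0.13 and 0.16 ± 0.13. Of the 26 genes tested in its list, only Pxn lay above untreated on all 4 cadmium arrays, against 1.82% of all probe sets. None lay below on all 4, against 4.9% of all. The markers of peritubular myoid and smooth muscle cells, a main source of tubular matrix, summed to 2660.9 and 2679.3 at 8 h and 3020.6 and 2536.3 at 20 h, against 2748.8 to 2833.6 on the untreated arrays, with 8 of 8 measured and none at 0. The bright genes carry this sum. Des and Actg2 were higher at 20 h than at 8 h without overlap, 2 of 8 against 15.2% of all probe sets. None was lower, against 13.2% of all. On 20 h replicate 1 they had 216.4 and 205.3, against 69.7 and 82.2 on 20 h replicate 2.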

How the data were processed

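The deposited table holds a linear signal intensity per probe set from MAS 5.0, and the series' design text also names GeneSpring 7.2; the trimmed mean was 250.1 on each array. The instrument's experiment files contain, per the file headers, other entries (settings without measurements), from which the hybridization day was read. Untreated replicate 2 was stained at 25 °C for 600 s and has mouse as sample type in its experiment file, where the other 6 have 35 °C, 300 s and rat; its array type and labels are rat. Depth is not a count on an array, so the number of arrays limits the precision.

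Of 31099 probe sets, 57 were controls, 20826 named 1 gene, 436 several and 9780 none in the platform annotation. The members' 79 Entrez IDs were in the RefSeq table and 0 symbols differed. Values were taken as log2(signal + 15) without further normalization. The filter required a signal over the 40th percentile of the array on 2 or more arrays. The probe sets left were fitted in limma 3.58.1 (R 4.3.3) with 3 groups, an intensity trend, 4 residual and 5.48 prior degrees of freedom, and Benjamini-Hochberg adjustment over all 20857; the fit was tested on simulated data. Medians take 1 probe set per gene, the brightest on average. The cadmium mean weighs both times equally. Where arrays are said not to overlap, every value of a group lies beyond every value of the other.

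Members and lists were chosen with earlier results of these data known. The text names a set list of main chains and receptors whatever their values, the 2 brightest members per role, and the 4 largest rises and falls per comparison. Col12a1, Col9a3, the genes beside the filter and those of the related lists were named after their values were seen. Arrays were not paired by replicate number, since the correlations of same-numbered deviations over 11544 genes were -0.02, 0.08 and 0.17. Alternatives were pseudocounts of 5 and 50, no filter, a 60th percentile filter, quantile and 75th percentile scaling, day or replicate block, no trend, every probe set, day 3 arrays alone and each array left out. Counts of arrays that do not overlap with an array left out were added after seeing the data.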

Additional observations from a re-analysis of the deposited data

Results flagged for a closer look

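For 6 of the 58 member genes tested, 10.3%, both 8 h arrays lay on one side of the untreated mean and both 20 h arrays on the other, against 5.29% of all 11544 genes tested. The 20 h minus 8 h differences on the log2 scale were 1.14 for Lama3, 0.77 for Itga6, 0.70 for Itga1, 0.51 for Itga5 and 0.25 for Fbn1, with 20 h higher, and -0.32 for Itga11, with 20 h lower. The genes were picked by this difference, so it was not tested for them. Lama3 passed the filter on low signals only through its 20 h arrays.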

How the results depend on the processing

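No setting that kept arrays of every day gave a member at an adjusted p under 0.05, and leaving out each array gave 0 in all 5 comparisons. With the 4 day 3 arrays alone, which leave 1 untreated array and 1 residual degree of freedom, 1 member passed for the mean of both cadmium times, the brighter probe set of Col1a1 (adjusted p = 0.037, limma), as did 10 of all 20857 probe sets. The untreated array in that fit is replicate 3, where Col1a1 was 2.52-fold above the other untreated arrays.

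The members' median was -0.24 at 8 h. It was -0.18 with a pseudocount of 50, -0.13 with the 60th percentile filter, -0.0803 after quantile normalization, -0.15 after 75th percentile scaling, -0.16 with the day as a block and -0.12 to -0.24 with single arrays left out. At 20 h it was -0.06, and 0.0297 after quantile normalization, -0.11 with the day as a block, -0.16 on day 3 arrays alone and -0.17 to 0.0324 with single arrays left out. For 20 h against 8 h it was 0.14, and 0.0689 with the 60th percentile filter, 0.0839 on day 3 arrays alone and 0.0646 to 0.18 with single arrays left out. The cause was not tested.

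Replicate numbers are shared between groups by number only. With the replicate block the members' median was -0.14 at 8 h and -0.13 at 20 h, and 0 members passed. Replicate 3 exists only among the untreated arrays, so this block takes that array out of the comparisons. The medians are the same as without untreated replicate 3, and the block is no separate check of them.

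With single arrays left out, member probe sets without overlap at 8 h numbered 3 to 10 higher and 20 to 32 lower, against 10.9% to 18.5% and 19.5% to 37.2% of all. At 20 h they numbered 7 to 17 and 16 to 30, against 7.9% to 19.4% and 15.1% to 31.1%. For 20 h against 8 h they numbered 28 to 42 and 13 to 19, against 29.8% to 43% and 26% to 34.5%. For all cadmium arrays they numbered 2 to 6 and 11 to 19, against 2.3% to 8.3% and 6.5% to 19.1%. Fewer arrays make separation easier by construction. Of the values of single genes, 153 moved by more than the spread between replicates and 2343 did not. Some settings cannot change a gene's fold change: no trend, another filter, or leaving out an array of a group not compared. The 2343 were thus partly fixed in advance and do not measure how stable the values are. With 2 or 3 arrays a group and dim probe sets near the filter, small differences were not detectable.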
